A study of Caenorhabditis elegans with 2 samples.

Results

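The fatty acid desaturases of the nematode Caenorhabditis elegans, fat-1 to fat-7, were examined for regions recovered with the nuclear hormone receptor NHR-77. The 7 genes were chosen by name from the 19973 protein-coding genes of the annotation, and all 7 were found in it. Chromatin immunoprecipitation with sequencing (ChIP-seq) recovers DNA bound by a protein, and here the protein was NHR-77 fused to enhanced green fluorescent protein (eGFP). The samples were 2 biological replicates of whole L4 larvae, the last larval stage, and they form 1 group. Both came from strain OP353, which carries the transgene wgIs353 in an unc-119(tm4063) background, with males and females pooled and the age given as unknown. The labels do not state which promoter drives the fusion, or whether the resident nhr-77 gene is intact. The control named in the labels was not analysed here, nor was any untagged or untreated sample. Recovery through NHR-77 therefore cannot be told apart from recovery for other reasons, and no comparison between groups could be tested.

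Desaturases place double bonds in fatty acyl chains, and their position names the enzyme. In C. elegans, FAT-5, FAT-6 and FAT-7 are delta-9 desaturases that turn saturated chains into monounsaturated ones: FAT-5 prefers palmitoyl-CoA, while FAT-6 and FAT-7 act on stearoyl-CoA and make oleic acid. FAT-2 (delta-12) then makes linoleic acid, FAT-3 (delta-6) and FAT-4 (delta-5) carry the chain towards the polyunsaturated fatty acids (PUFA), and FAT-1 makes omega-3 from omega-6 fatty acids. The delta-9 genes are known targets of other nuclear receptors, among them NHR-49 and NHR-80, with the sterol regulatory factor SBP-1 and the Mediator subunit MDT-15.

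The deposited lists used here hold 30000 regions for each replicate and 30000 for both replicates pooled, on build ce11, and each mixes peaks with background. A further list of 3457 peaks passed the authors' threshold on the irreproducible discovery rate, a measure that compares the ranks of regions between replicates. These thresholded peaks were the 3457 pooled regions with the highest signal, from 46.7 to 596 with a median of 67.1. Of them, 3405 had a region in both replicate lists, so not every thresholded peak was found in each replicate. The signal is the authors' own enrichment value, whose scale differs between lists, so regions were ranked by signal within each list, with rank 1 the strongest. Read depth is unknown. Of the pooled regions, 8873 had a deposited q-value under 0.05, against 9386 in replicate 1 and 11287 in replicate 2. Distances run from the summit, the position of highest signal in a region, to the own start, the 5′ end of the gene record, and are negative upstream. Many worm messages are trans-spliced, so an annotated start can lie downstream of the site where transcription begins.

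The sequences around 6 summits are shown because they hold the strongest peak of the fat-1 and fat-2 pair, the strongest of the fat-3 and fat-4 pair, the peak with the most GATA matches, and 3 delta-9 peaks that differ in these matches. Each is 101 bases of the WBcel235 genome (ce11 coordinates) from RefSeq, 5′ to 3′ on the strand of the gene. Capitals mark matches on either strand to the GATA motif, which reads A or T, then GATA, then A or G. Its extended form CTGATAA, with a C before one of these, overlaps it and is marked too.
fat-1 downstream, plus strand, chrIV:13318895-13318995: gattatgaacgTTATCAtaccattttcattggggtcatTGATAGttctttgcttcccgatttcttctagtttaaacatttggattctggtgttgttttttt
fat-4 intron, plus strand, chrIV:9801596-9801696: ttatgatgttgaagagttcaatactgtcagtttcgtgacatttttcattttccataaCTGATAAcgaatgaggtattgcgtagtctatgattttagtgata
fat-2 downstream, plus strand, chrIV:13327209-13327309: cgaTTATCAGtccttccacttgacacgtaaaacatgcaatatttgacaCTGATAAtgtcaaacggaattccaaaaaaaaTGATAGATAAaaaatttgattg
fat-6 upstream, minus strand, chrIV:11916973-11917073: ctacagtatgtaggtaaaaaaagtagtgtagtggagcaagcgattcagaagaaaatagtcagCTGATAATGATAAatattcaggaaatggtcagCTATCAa
fat-6 intron, minus strand, chrIV:11914891-11914991: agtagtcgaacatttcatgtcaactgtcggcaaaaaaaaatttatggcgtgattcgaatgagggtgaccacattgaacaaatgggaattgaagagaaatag
fat-7 downstream, minus strand, chrV:7150717-7150817: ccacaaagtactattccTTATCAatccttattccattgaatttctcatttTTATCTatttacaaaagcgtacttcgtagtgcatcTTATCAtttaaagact

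All 7 desaturase genes had at least 1 thresholded peak with its summit within 5000 bp of an annotated transcript start, as did 31.1% of protein-coding genes. The peaks numbered 13 in all, and none had its summit in a coding exon. Of these 13 summits, 8 were intergenic, 3 lay in introns of fat-3, fat-4 and fat-6, and 2 lay in untranslated exons. The same split over all 3457 thresholded peaks is not given here, so these positions describe the 13 peaks only. By gene there were 2 peaks for fat-1, 3 for fat-2, 2 for fat-3, 3 for fat-4, 1 for fat-5, 3 for fat-6 and 2 for fat-7. Over all protein-coding genes the median was 0 and the mean 0.431, and 8.63% of genes had 2 or more peaks and 2.4% had 3 or more. Because fat-1 and fat-2 are neighbours, as are fat-4 and fat-3, some summits counted for 2 members. The pooled list held 45 regions in these windows, beside 45 in the list of replicate 1 and 51 in that of replicate 2.

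**Figure D1:**
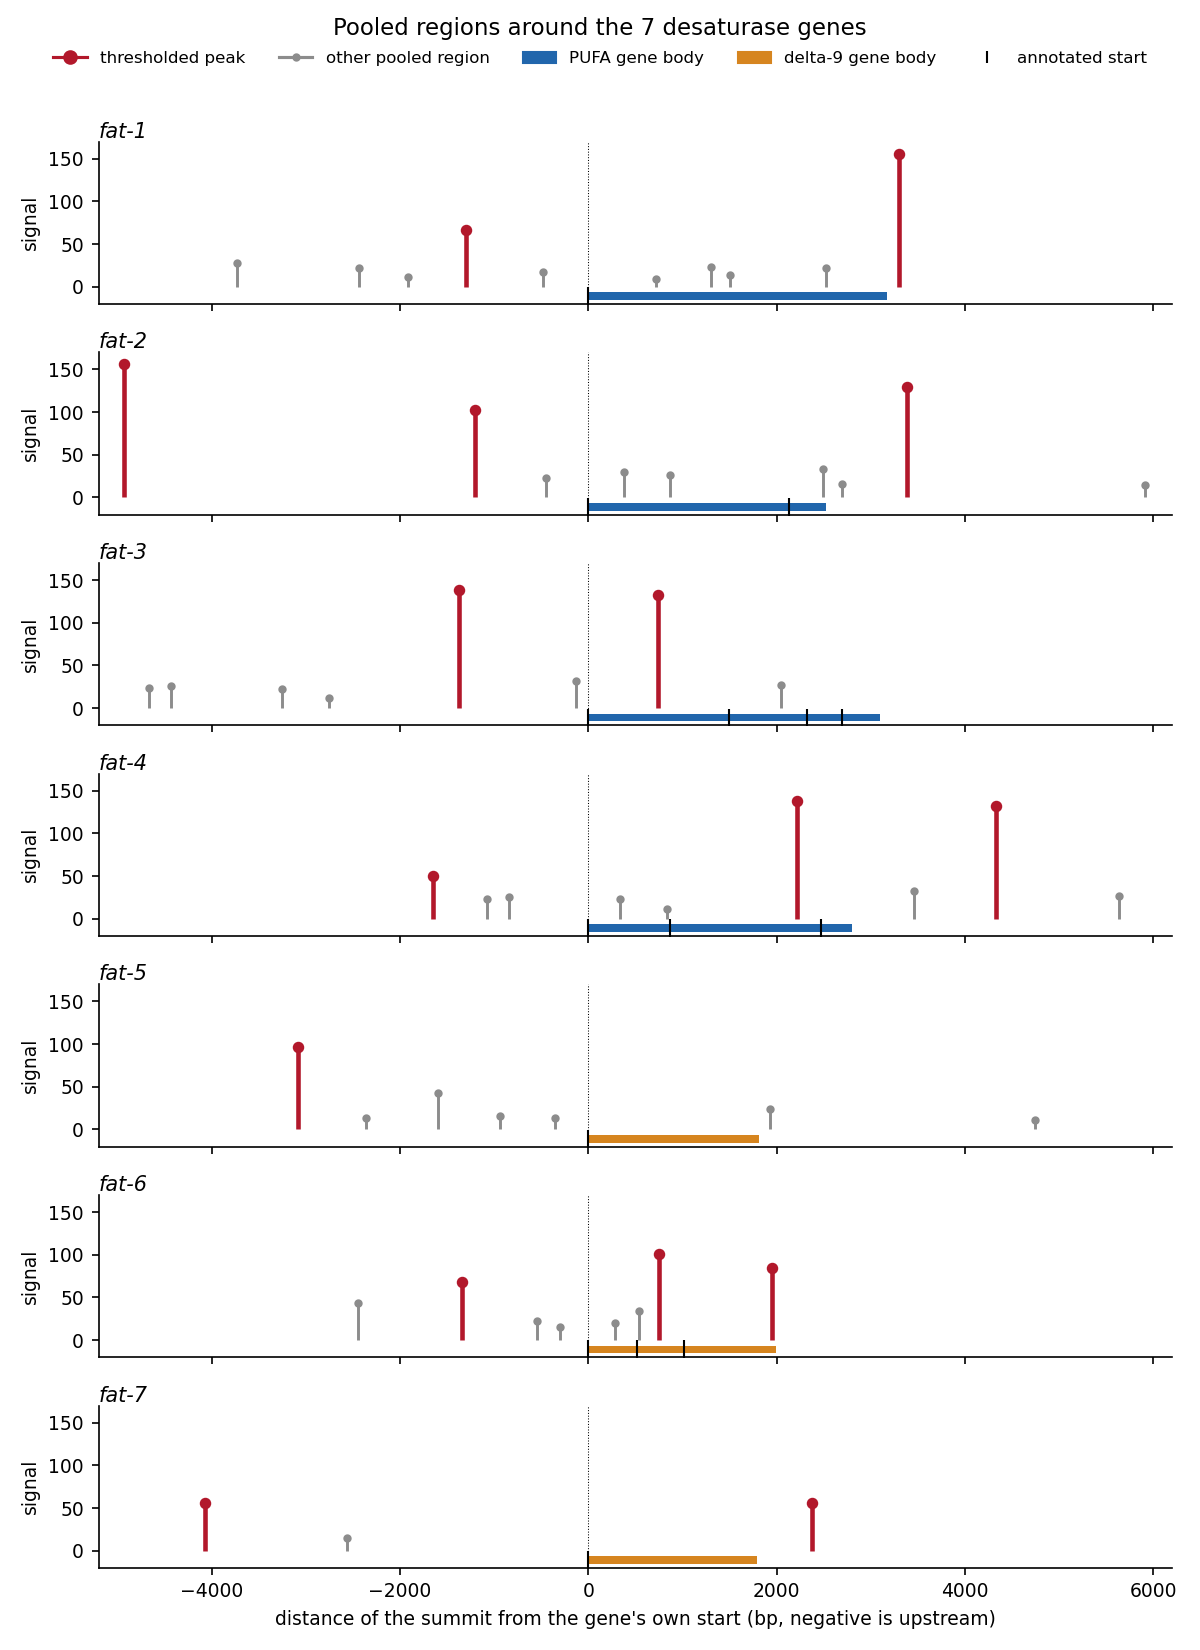
Signal (vertical axis, the authors' value without unit) of every pooled region within 5000 bp of a transcript start, against the distance of its summit from the own start in bp, with 1 panel per gene. Red marks thresholded peaks, grey the other pooled regions, bars the gene bodies and ticks the annotated starts. The red summits lie away from 0 in all 7 panels, and fat-5 shows 1 of them where fat-2, fat-4 and fat-6 show 3.

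The thresholded summits all lay more than 500 bp from the own start of each gene. No desaturase gene, 0 of 7, had a thresholded summit within 500 bp of its own start, where 9.6% of protein-coding genes had one. With only 7 genes, a count of 0 is near that share and is not read as a trait of these genes. Counting internal starts, 2 of 7 had one, fat-4 and fat-6, against 10.2% of genes. Among the 6206 genes with a thresholded summit within 5000 bp, 30.9% had one within 500 bp of the own start. Farther out, 5 of 7 desaturase genes (fat-1, fat-2, fat-3, fat-4 and fat-6) had a thresholded summit 1000 to 2000 bp upstream of the own start. That held for 4.2% of protein-coding genes, and for 13.5% of those with a thresholded summit within 5000 bp. This band was chosen after the distances were seen, so its count describes these genes only. All 4 PUFA genes and 1 of 3 delta-9 genes fell in it. For fat-3, fat-4 and fat-6, however, the start nearest to the summit in the band belonged to another gene. These were fat-4 at 259 bp, T13F2.2 at 427 bp and ZK822.10 at 114 bp, in that order.

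Weaker regions did lie close to the starts. In the pooled list 6 of 7 members had a summit within 500 bp of the own start, with 8 regions in all, and 35.2% of protein-coding genes had one. Those 8 regions ranked from 5703 to 18429, outside the thresholded set. The strongest was 130 bp upstream of fat-3, with a signal of 32.2, and the weakest was 354 bp upstream of fat-5, with 13.4. At fat-7 the pooled list held no region this close.

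The omega-3 desaturase gene fat-1 (WBGene00001393, chrIV:13315644-13318811, plus strand, 1 annotated start) had the strongest peak of the set, and it lay beyond the gene's 3′ end. Its summit was 134 bp past the end of fat-1, 3301 bp from the own start, in the intergenic stretch that leads to fat-2, whose own start was 4928 bp away. The region chrIV:13318841-13318983 had a pooled signal of 156 (rank 184), with 55.9 in replicate 1 (rank 194) and 96.9 in replicate 2 (rank 227). It thus ranked 227 or stronger in all 3 lists. The other fat-1 peak, chrIV:13314160-13314519, lay 1304 bp upstream in intergenic DNA. It had a pooled signal of 66.9 (rank 1746), with rank 3267 in replicate 1 (signal 19.0) and rank 1705 in replicate 2 (signal 46.4). The remaining 8 pooled regions at fat-1 had signals from 9.7 to 27.6, and 4 of them lay inside the gene. The upstream gap to the next protein-coding gene was 4820 bp, against a median of 936 bp over all genes.

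The delta-12 desaturase gene fat-2 (WBGene00001394, chrIV:13323873-13326395, plus strand, 2 annotated starts) was flanked by strong peaks on both sides. Upstream, chrIV:13322490-13322849 had its summit at -1203 bp and a pooled signal of 102 (rank 631). It held rank 447 in replicate 1 (signal 42.6) and rank 760 in replicate 2 (signal 64.7). Downstream, chrIV:13327175-13327335 had a pooled signal of 130 (rank 318), with rank 302 in replicate 1 (signal 48.1) and rank 390 in replicate 2 (signal 82.0). This summit lay 864 bp past the 3′ end of fat-2 and 1100 bp upstream of far-6, which encodes a fatty acid and retinol binding protein and has the nearest start. Both peaks therefore kept places within the strongest 760 regions of either replicate. The 6 weaker pooled regions at fat-2 had signals from 14.6 to 33.0.

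The neighbours fat-4 (delta-5, WBGene00001396, chrIV:9799429-9802226) and fat-3 (delta-6, WBGene00001395, chrIV:9803023-9806119) lie on the plus strand with 796 bp between them, and their strongest peaks were inside the genes. An intron of fat-4 held the region chrIV:9801586-9801701, with a pooled signal of 138 (rank 263), 47.6 in replicate 1 (rank 310) and 96.5 in replicate 2 (rank 235). Its summit was 2217 bp from the own start of fat-4 and 259 bp upstream of an internal start, and it was also 1377 bp upstream of fat-3. This summit is the one that placed fat-4 within 500 bp of a start and fat-3 in the upstream band.

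An intron of fat-3 held chrIV:9803582-9803941, with its summit 739 bp from the own start and a pooled signal of 132 (rank 299). It ranked 140 in replicate 1 (signal 61.7) and 615 in replicate 2 (signal 69.8), a 4.39-fold difference in rank. The weakest thresholded peak of the 13 was upstream of fat-4 at -1648 bp, chrIV:9797601-9797960, with a pooled signal of 49.9 (rank 3089). It held rank 3619 in replicate 1 (signal 18.0) and rank 3154 in replicate 2 (signal 32.9). Its nearest start was that of T13F2.2, 427 bp away. The genes whose own strongest peak near a start ranked next to the fat-4 intron were sac-2 (rank 262) and farl-11 (rank 265), likeness being the difference in pooled rank.

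Among the delta-9 genes, fat-6 (WBGene00001398, chrIV:11913692-11915687, minus strand, 3 annotated starts) had the most peaks. Of these the replicates ranked the intron peak most unequally. Its intron peak, chrIV:11914815-11915044, lay 746 bp from the own start and 226 bp past an internal one. It had a pooled signal of 101 (rank 643), with 59.4 in replicate 1 (rank 165) and 41.9 in replicate 2 (rank 2089), a 12.7-fold difference in rank. The peak in the untranslated part of the last exon, chrIV:11913503-11913811, had its summit 44 bp inside the 3′ end and a pooled signal of 85.0 (rank 995). It ranked 392 in replicate 1 (signal 44.5) and 1264 in replicate 2 (signal 53.1). Its summit in replicate 2 lay 108 bp away and fell past the gene's end.

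The upstream fat-6 peak, chrIV:11916843-11917202, went the other way. Its summit at -1336 bp had a pooled signal of 68.1 (rank 1676), with rank 1902 in replicate 1 (signal 24.7) and rank 1006 in replicate 2 (signal 58.4). The nearest start was that of ZK822.10, 114 bp away, and ZK822.9 lies between with a gap of 259 bp to fat-6. By pooled rank, the neighbours of the fat-6 intron peak were the peaks near lec-6 (rank 640), which encodes a galectin, and dhs-14 (rank 644), which encodes a short-chain dehydrogenase. Just outside the threshold, at -2451 bp in an untranslated exon of ZK822.1, lay a region of rank 3864 with a pooled signal of 43.2.

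The other stearoyl-CoA desaturase gene, fat-7 (WBGene00001399, chrV:7151353-7153146, minus strand, 1 annotated start), had the fewest pooled regions of the 7 and the weakest best peak. The pooled list held 3 regions there, against a median of 3 and a mean of 3.13 over all genes. The peak at -4067 bp, chrV:7157033-7157392, had a pooled signal of 56.4 (rank 2488), with rank 2097 in replicate 1 (signal 23.8) and rank 3253 in replicate 2 (signal 32.4). It was 18 bp past the start of ugt-39, a glucuronosyltransferase gene, in an untranslated exon of that gene. The peak chrV:7150587-7150946 lay 586 bp past the 3′ end of fat-7 and 53 bp upstream of F10D2.8. It had a pooled signal of 55.8 (rank 2540), with rank 2024 in replicate 1 (signal 24.2) and rank 2792 in replicate 2 (signal 35.7). Both fat-7 peaks thus lay beside the start of another gene.

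The palmitoyl-CoA desaturase gene fat-5 (WBGene00001397, chrV:17725004-17726818, plus strand, 1 annotated start) had 1 thresholded peak. The region chrV:17721743-17722102 had its summit at -3081 bp, in intergenic DNA where str-77, a chemoreceptor gene, has the nearest start at 2976 bp. It had a pooled signal of 96.3 (rank 745), but ranked 3338 in replicate 1 (signal 18.8) and 433 in replicate 2 (signal 79.1), a 7.71-fold difference. A region at -1597 bp stood just outside the threshold, with a pooled signal of 42.6 (rank 3944). It was stronger than the thresholded one in replicate 1 (rank 980, signal 32.3) and weaker in replicate 2 (rank 15513, signal 9.93). The replicates therefore placed the strongest region of fat-5 at different sites.

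**Figure D2:**
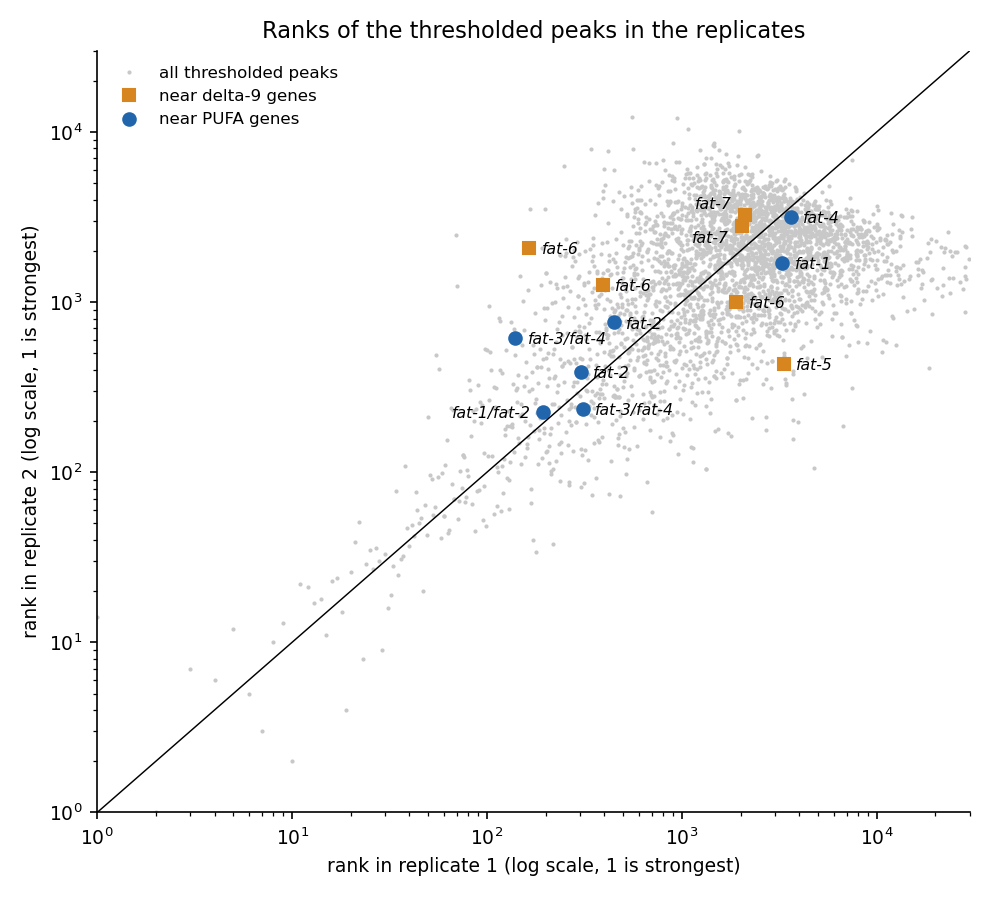
Rank in replicate 1 (horizontal) and in replicate 2 (vertical) of 3405 thresholded peaks with a region in both replicate lists, on log axes where 1 is the strongest. Circles are peaks near PUFA genes, squares peaks near delta-9 genes and the line marks equal ranks. The fat-5 peak (3338 and 433) and a fat-6 peak (165 and 2089) lie farthest from the line among the 13.

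All 13 peaks had a region in both replicates, as did 3405 of all 3457 thresholded peaks. The deposited −log10 q-values of the 13 were 2.98 to 3.67 in replicate 1 and 4.01 in replicate 2. The values 3.67 and 4.01 are the highest in those lists and do not single out these peaks. In replicate 2 a region of rank 5007 near fat-6 also held 4.01. The larger rank divided by the smaller had a median of 1.7 over the 13 peaks and of 1.95 over all 3405 thresholded peaks found in both replicates. In 2 of 13 (15.4%), the fat-5 peak and the fat-6 intron peak, the ranks differed over 5-fold, as they did in 10.6% of all. Both of these belonged to delta-9 genes, but 2 peaks are too few to compare the classes. The fat-3 intron peak, of a PUFA gene, differed 4.39-fold. Most regions had 1 length: 8 of the 13 peaks and 88.5% of all thresholded peaks were 360 bp long. No 36-base stretch of any of the 13 peaks occurred again in the genome. The gene records of fat-6 and fat-7 shared an identical run of up to 44 bases, and no peak held 36 bases of it.

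By their strongest pooled region within 5000 bp of a start, the PUFA genes stood above the delta-9 genes, an order that did not hold in narrower windows. The best pooled ranks were 184 for fat-1 and fat-2 and 263 for fat-3 and fat-4, a median of 223. They were 643 for fat-6, 745 for fat-5 and 2488 for fat-7, a median of 745. Regions as strong or stronger lay within 5000 bp of 2.46% of protein-coding genes for fat-1 and fat-2, and of 3.5% for fat-3 and fat-4. For fat-6 this share was 7.85%, for fat-5 8.93% and for fat-7 24.3%. The 4 PUFA genes contribute only 2 distinct regions here, since each neighbouring pair shares its strongest one, and the 3 against 4 genes are no replicates, so no test was made.

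**Figure D3:**
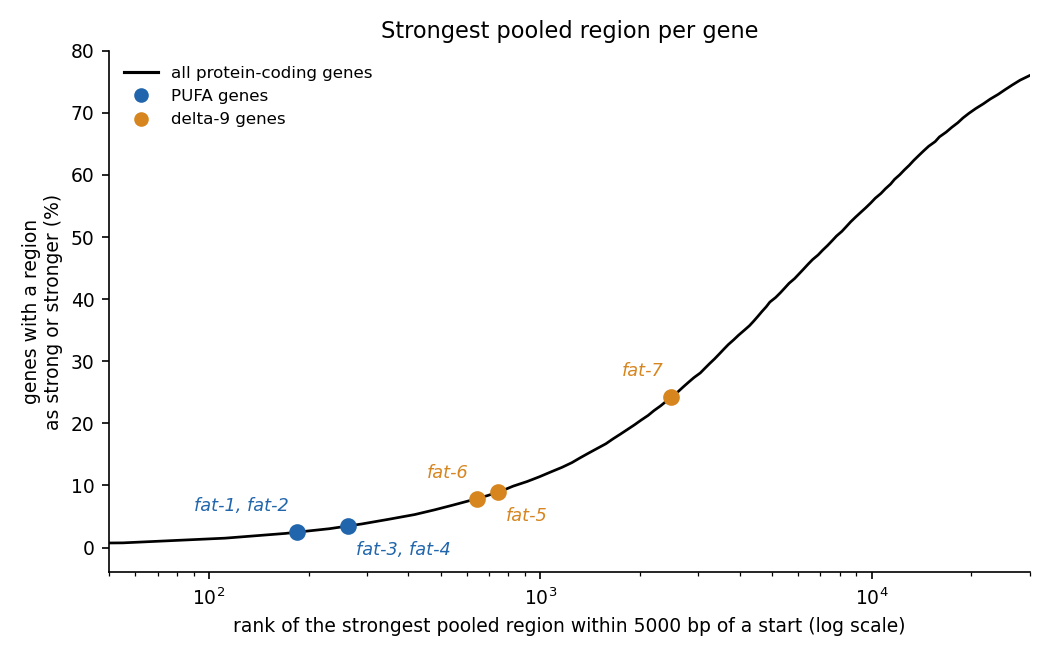
Share of protein-coding genes (vertical, %) with a pooled region of a given rank or stronger within 5000 bp of a start (horizontal, log scale). Dots mark the strongest region of the PUFA genes and of the delta-9 genes, from 2.46% for fat-1 and fat-2 to 24.3% for fat-7.

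The separation depended on the window and on the replicate. Within 2000 bp of a start the best pooled ranks were 1746 for fat-1, 318 for fat-2 and 263 for fat-3 and fat-4, beside 643 for fat-6 and 3944 for fat-5, so fat-1 stood below fat-6. Within 500 bp they were 13467 for fat-1, 5508 for fat-2, 5703 for fat-3 and 263 for fat-4, beside 643 for fat-6 and 18429 for fat-5, so fat-4 alone of the PUFA genes stood above fat-6. No pooled region lay within 2000 bp of the fat-7 start. With the window of 5000 bp, in replicate 2 the best ranks of the PUFA genes ran from 227 to 235 and those of the delta-9 genes from 433 to 2792, without overlap. In replicate 1 they ran from 140 to 194 and from 165 to 2024, and overlapped through fat-6, whose intron peak at rank 165 stood above the best rank of fat-1 and fat-2 at 194. The order fat-7 below fat-5 held in both replicates, while fat-6 and fat-5 changed places. In numbers of peaks within 5000 bp the classes were alike, with 6 distinct thresholded peaks for the 3 delta-9 genes and 7 for the 4 PUFA genes. The pooled list held 18 and 27 distinct regions. When a peak counted only for the nearest gene, 1 of the 3 delta-9 genes and all 4 PUFA genes kept a thresholded peak.

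The GATA motif lay within 50 bp of the summit in 9 of the 13 peaks, and in 40.2% of all 3457 thresholded peaks. GATA factors such as ELT-2 direct gene expression in the worm intestine, a main site of fat synthesis and storage. The motif was present in 4 of 6 delta-9 peaks and 5 of 7 PUFA peaks. The fat-2 downstream peak held 4 matches, and the fat-6 upstream and fat-7 downstream peaks held 3 each. No match was found at the summits of the fat-2 upstream peak, the fat-3 intron peak, or the fat-6 intron and last exon peaks. The extended form CTGATAA was in 3 of 13, the fat-4 intron, fat-6 upstream and fat-2 downstream peaks, against 11.7% of all thresholded peaks.

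The nuclear receptor half-site AGGTCA was in 0 of 13 of these windows, searched on both strands, and in 3.15% of all thresholded peaks. The E-box CACGTG was also in 0 of 13, against 5.55%. The repeat GAGAGA was in 1 of 13, the fat-3 intron peak, against 21.0% of all. The median GC content was 36.6% over the 13 windows and 41.6% over all thresholded peaks, and base composition moves with such matches; its part in the counts was not tested. A match describes the letters in the window and marks neither a site nor a cause, and the absence of one says nothing about a factor.

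Of 31 other genes of fatty acid metabolism and desaturase regulation, 10 had a thresholded summit within 500 bp of a start, beside the 10.2% of protein-coding genes given above. Within 5000 bp the count was 22 of 31, against 31.1% of protein-coding genes. By role, 5 of 12 elongation genes, 1 of 2 cytochrome b5 electron donors and 4 of 10 regulators had a summit within 500 bp. None of the 3 genes of substrate synthesis (pod-2, fasn-1 and mlcd-1) and none of the 4 genes of phosphatidylcholine synthesis (sams-1, pmt-1, pmt-2 and pcyt-1) did. Neither did the regulators sbp-1, mdt-15, nhr-13, nhr-64, paqr-2 and iglr-2. Of these regulators, only mdt-15 had a thresholded summit within 5000 bp. Within 500 bp of the own start, 9 of 31 had one, against 9.6% of protein-coding genes. In the band 1000 to 2000 bp upstream, 5 of the 31 had one, against 4.2% of protein-coding genes.

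Of the elongation genes, elo-6, an elongase of branched-chain fatty acids, had the strongest such peak, at -367 bp with a pooled signal of 81.9. Its ranks were 1109 in the pooled list, 1031 in replicate 1 and 1106 in replicate 2, so the lists placed it alike. The elongase elo-1, which acts on polyunsaturated chains, had rank 1382 (signal 74.5) in one of its introns. That summit lay 228 bp past an internal start and 870 bp from the own start. It was the stronger of 2 thresholded summits within 500 bp of an elo-1 start. The palmitate elongase elo-2 had rank 3198 at -141 bp. Of the enzymes that complete each elongation cycle, the dehydratase gene hpo-8 had rank 2160 (signal 60.6) at -115 bp and the reductase gene let-767 had rank 2934 (signal 51.5) in an intron. The cytochrome b5 gene cytb-5.1, whose product can pass electrons to desaturases, had rank 2197 (signal 60.1) at -272 bp.

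Of the regulators, nhr-80, a receptor known to activate delta-9 genes, had a summit 39 bp upstream of its start, with rank 1719 (signal 67.4), 1452 in replicate 1 and 1844 in replicate 2. The receptor gene nhr-49 had rank 1250 (signal 77.8) at -481 bp, but rank 199 in replicate 1 and 3513 in replicate 2. This was the stronger of its 2 thresholded summits within 500 bp of a start. For nhr-66, whose product is a partner of NHR-49, the summit counted was 318 bp upstream of an internal start, 6707 bp from the own start, with rank 2300 (signal 58.6). The gene acdh-11, an acyl-CoA dehydrogenase known to restrain fat-7, had rank 2981 (signal 51.0) at -177 bp. Within the same 500 bp in the pooled list, the best regions of fat-4 (rank 263) and fat-6 (rank 643) stood above these 10 peaks. Those of fat-1, fat-2, fat-3 and fat-5 lie outside the thresholded set. Their place below all 10 thresholded peaks was therefore fixed by the choice of peaks. Pathway genes without a thresholded peak in this window were left out of this comparison.

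**Figure D4:**
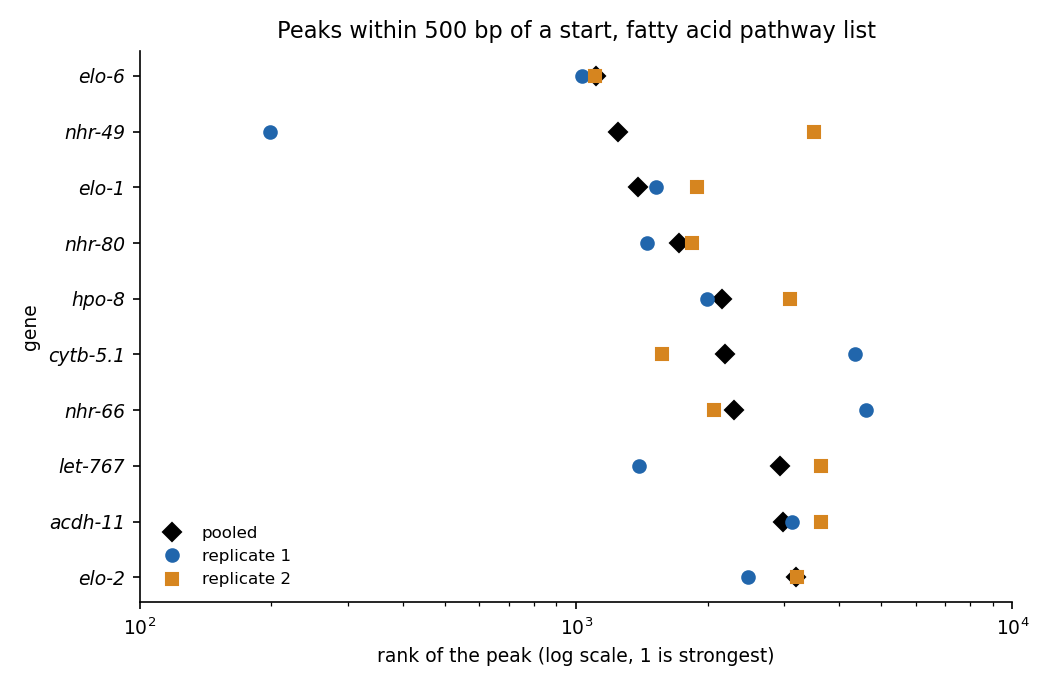
Rank (horizontal, log scale, 1 is the strongest) in the pooled list and in each replicate of the strongest thresholded peak within 500 bp of a start, for the 10 of 31 pathway genes that have one. The replicates lie close for elo-6 (1031 and 1106) and far apart for nhr-49 (199 and 3513).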

How the data were processed

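The 2 samples were read through peak lists that the authors deposited on build ce11, in which a signal value and a −log10 q-value stand for each region. One control served both replicates and the thresholded set came from the replicate and pooled lists, per the deposited file listings. The sources used here do not give the aligner, peak caller, versions, irreproducible discovery rate threshold, fragment treatment or read depth. Precision therefore rests on the agreement of 2 replicates. Lists on build ce10 were not used.

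Starts came from the Ensembl release 115 annotation of WBcel235 and sequences from the RefSeq genome of the same build. A region counted for a gene when its summit lay within 5000 bp of any transcript start. Ranks were taken by signal within each list, and tied regions shared the smallest rank. Peaks were matched between lists when they shared 1 bp. Coordinates are 1-based. With 1 group there was no test, so counts stand beside the same count over all genes. The counting was checked on simulated regions. Named genes are the 7 members, pathway genes, the gene with the nearest start for each peak, and neighbours in rank. Every pathway gene with a peak within 500 bp of a start is named, and some without one. The members, the pathway list and the motifs were chosen with earlier results of these data known. Python 3.11.15, numpy 2.4.6, pandas 2.3.3, scipy 1.17.1 and matplotlib 3.10.9 were used. Alternatives changed the peak set, replicate, start, assignment, position and window.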

Additional observations from a re-analysis of the deposited data

How the results depend on the processing

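Of the 97 values recomputed under an alternative, 65 stayed close to the value given in the report and 32 moved. Counts and ranks were called close when within 1.5-fold, so a close value can still differ. Shares of all genes were held more tightly, so that 30.3% in place of 31.1% counted as moved. All 4 PUFA genes and fat-6 kept a peak within 5000 bp of a start under each of the 7 alternatives for that count, whereas fat-5 and fat-7 lost theirs with a window of 2000 bp and when a peak counted only for the nearest gene, which left 1 delta-9 gene in either case. With only the 1728 strongest thresholded peaks fat-7 alone was lost. Counting for the nearest gene only left 7 of the 13 peaks. Within 500 bp, the own start left 0 members and a window of 250 bp left 1. The pathway count was 4 with the 1728 strongest peaks and 5 within 250 bp. Without replicate 1 or replicate 2 these counts were 7 and 7 members within 5000 bp, 2 and 3 within 500 bp, 11 and 9 pathway genes, and 13 and 16 peaks. The pooled regions fell to 27 with a q-value under 0.05, and the upstream band, chosen after seeing the data, to 3 members with the 1728 strongest peaks.

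The background within 5000 bp was 18.1% with the 1728 strongest peaks, 30.3% from the own start, 13.6% for the nearest gene only, 31.8% for any base of the region and 18.4% within 2000 bp. Within 500 bp it was 5.51%, 9.6%, 8.51% and 11.4% in the same order, 6.84% within 250 bp and 13.2% within 1000 bp. No region lay within 500 or 2000 bp of a fat-7 start, so those ranks have no value. The protein identity between members was not run. Unknown read depth limits what a missing region means.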
